A study of Homo sapiens with 9 samples.

Results

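The 43 genes described here lie on chromosome 2 between about 110 and 130 Mb (GRCh38), from BUB1 to HS6ST1, and are 43 of the 60662 genes in the table. They were chosen by their measured values: the rule took genes of this stretch because, as a stretch, their RNA was lower in both DYRK1A knockout (KO) clones than in wild-type (WT) cells of the same line. Not every member was lower in both clones. Every comparison of a member with WT below is therefore a description and carries no test. The comparison of one clone with the other was not itself used in the choice, and it is the one in which members were tested. A stretch chosen as lower in both clones does, however, favour genes on which the clones agree.

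RNA was sequenced from SET2, a megakaryoblastic leukemia line that arose after a myeloproliferative neoplasm and carries mutant JAK2. The 9 libraries were 3 of WT SET2 cells, 3 of the KO clone 11H1 and 3 of the KO clone 14B5, with no drug treatment in any of them. Cas9 protein and a guide RNA against DYRK1A, a kinase gene, were delivered by nucleofection, and each clone was grown from 1 sorted cell and kept for carrying only out-of-frame indels. No library came from a clone grown out of an unedited cell, so editing and growth from a single cell cannot be told apart, and nothing in the labels says that replicates were separate cultures, so p-values measure only the spread between these libraries.

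The libraries held 32347779 to 60272245 expected counts. DYRK1A mRNA measured 196 to 219 CPM (normalised counts scaled to library size, with TMM factors) in WT, 188 to 192 CPM in 11H1 and 174 to 191 CPM in 14B5, and the indels themselves are not measured in these files. Of the megakaryocyte markers, ITGA2B measured 593 to 927 CPM and GATA1 223 to 293 CPM, whereas the platelet chemokine genes PF4 and PPBP stayed at or under 0.793 CPM. Erythroid markers were also present: HBA1 measured 1223 to 1875 CPM, KLF1 268 to 452 CPM, HBG1 27.9 to 40.1 CPM and HBB 1.06 to 2.54 CPM. Of other blood cells, CD3E and CD14 stayed at or under 0.395 CPM and MPO at or under 1.51 CPM. Mitochondrially encoded genes took 3.54 to 6.03% of counts in WT, 7.23 to 7.39% in 11H1 and 3.3 to 3.92% in 14B5; the part of this difference in the results was not tested.

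The stretch is a mixed neighbourhood and not a pathway. Its genes include a kinase of the spindle checkpoint, which holds cells before anaphase until chromosomes are attached, and the largest subunit of the anaphase-promoting complex (APC/C), the ubiquitin ligase that this checkpoint restrains. Others encode subunits of RNA polymerases I and II, a polyadenylation factor, an ARP2/3 subunit that nucleates branched actin, the cytokine interleukin-1β, the red cell protein glycophorin C, and the sterol sensor partner INSIG2. Many of these proteins work in complexes whose other subunits are encoded elsewhere in the genome, and those partners are described after the members.

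Promoter sequences are shown for the mitotic genes of the stretch, because this group holds both a gene that was clearly lower in both clones, BUB1, and the 1 tested member that was higher in both, CKAP2L. Genes expressed around mitosis often carry a CHR element (letters TTTGAA or TTCGAA, searched on both strands) near the transcription start. Each line gives bases -250 to 20 around the RefSeq start (GRCh38.p14, minus strand of chromosome 2), 5′ to 3′, with any such letters in capitals.
BUB1 (chr2:110678044-110678313): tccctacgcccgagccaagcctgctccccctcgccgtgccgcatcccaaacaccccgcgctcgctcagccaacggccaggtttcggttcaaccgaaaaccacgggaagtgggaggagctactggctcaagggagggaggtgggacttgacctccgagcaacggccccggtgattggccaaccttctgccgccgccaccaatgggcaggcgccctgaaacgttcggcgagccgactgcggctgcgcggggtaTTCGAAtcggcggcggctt
CKAP2L (chr2:112764590-112764859): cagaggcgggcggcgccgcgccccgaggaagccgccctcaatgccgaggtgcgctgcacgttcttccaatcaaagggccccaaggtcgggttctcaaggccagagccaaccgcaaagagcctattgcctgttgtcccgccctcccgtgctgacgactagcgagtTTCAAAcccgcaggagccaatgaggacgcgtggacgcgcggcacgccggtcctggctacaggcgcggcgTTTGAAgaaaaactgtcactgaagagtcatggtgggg
ANAPC1 (chr2:111884174-111884443): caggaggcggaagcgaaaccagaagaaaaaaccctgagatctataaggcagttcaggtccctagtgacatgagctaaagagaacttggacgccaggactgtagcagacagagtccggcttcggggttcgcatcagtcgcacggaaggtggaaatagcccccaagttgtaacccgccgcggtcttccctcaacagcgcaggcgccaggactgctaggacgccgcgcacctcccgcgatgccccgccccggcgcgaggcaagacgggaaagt
CLASP1 (chr2:121649443-121649712): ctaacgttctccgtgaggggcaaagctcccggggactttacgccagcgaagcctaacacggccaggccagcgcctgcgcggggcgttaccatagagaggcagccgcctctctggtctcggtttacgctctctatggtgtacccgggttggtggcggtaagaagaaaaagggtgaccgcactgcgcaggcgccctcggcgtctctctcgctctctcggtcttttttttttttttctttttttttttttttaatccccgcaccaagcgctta
BUB1 held TTCGAA from base 2 after its start. CKAP2L held TTTGAA from base -17 and the reverse complement of the same letters from base -86. In the ANAPC1 promoter TTTGAA lay past the printed bases, from base 38, and neither form was in the CLASP1 window. Over windows from 250 bases before to 50 after the start, RefSeq promoters were found for 41 of the 43 members. TTTGAA was in the promoter of 4 of them (9.76%), against 18.2% of the 27305 genes with a promoter, and TTCGAA was in 1 (2.44%), against 1.82%. The letters CCAAT were in 13 members (31.7%), against 39.7% of all genes. Where a gene had more than 1 promoter, it counted for these letters if any of its promoters held them. For GC content, the promoter with the highest value was taken. The GC content of the members' promoters ranged from 42.3 to 88.7%, with a median of 69.7%, and the median over all genes was 59.7%. All genes here include ones not expressed in these cells, so nothing is read from that difference.

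Of the 43 members, 41 passed the filter on low counts in the comparison with WT. The other two were FBLN7, a fibulin of the extracellular matrix, with 5, 1 and 0 counts in WT, 4, 2 and 4 in 11H1 and 0, 0 and 3 in 14B5, and INHBB, a subunit of activin B, with 1 count in all 9 libraries. Neither can be said to be lower or higher at this depth.

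In KO versus WT, 40 of the 41 members were lower and 1 was higher. The median member log2FC was -0.61 (quartiles -0.86 and -0.46), or 65.7% of the WT level, while the median over all 17080 genes tested was 0.02 (quartiles -0.30 and 0.26) and 47.7% of them were lower. In 38 of the 41 members every KO library was below every WT library, which held for 20.3% of all genes. Since these contrasts chose the members, nothing is read from that difference. The same was seen in each clone taken alone: the median member was at 65.3% of WT in 11H1 (39 lower, 2 higher) and at 66% in 14B5 (40 lower, 1 higher). Both clones were set against the same 3 WT libraries.

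The library medians showed how even this was. Taking each library's log2 ratio to the WT mean, the median over members was -0.01, -0.02 and 0.04 in the WT libraries, -0.60, -0.70 and -0.58 in 11H1 and -0.55, -0.58 and -0.63 in 14B5. The same median over all genes stayed between -0.02 and 0.02 in every library. These are bulk samples, so fewer cells expressing a gene and less RNA per cell cannot be told apart.

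**Figure D1:**
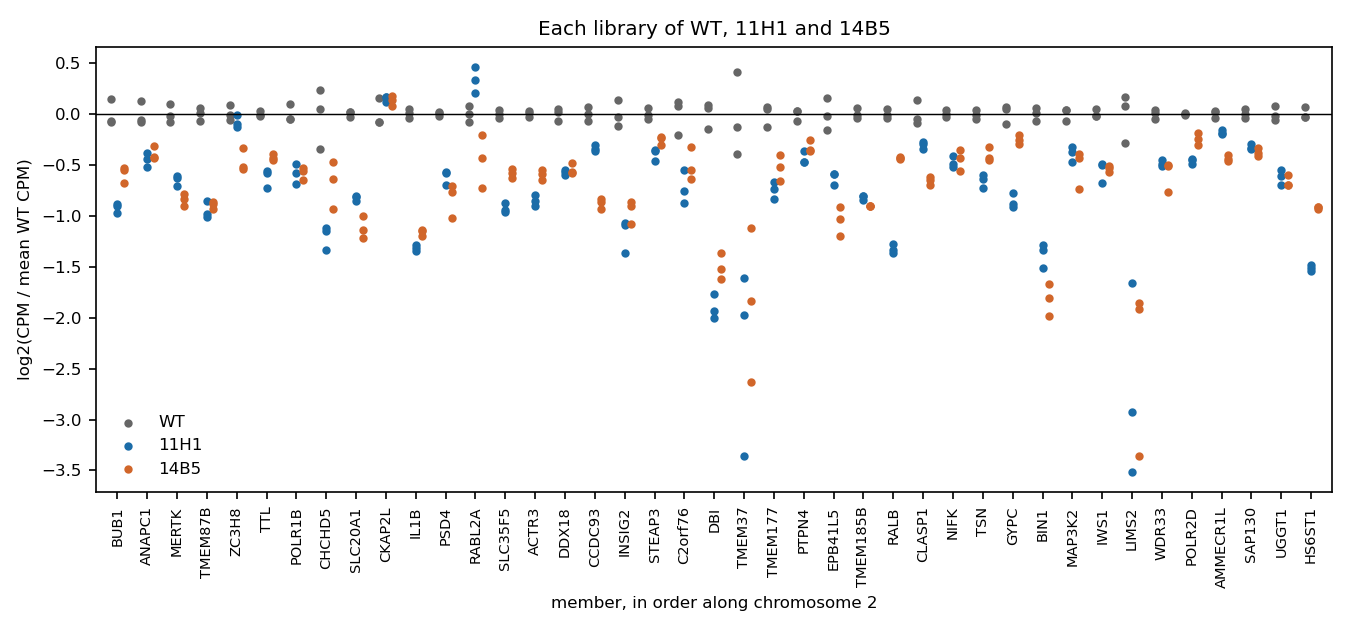
Each point is 1 library, as log2 of its CPM over the mean WT CPM, for the 41 tested members in order along chromosome 2 (WT gray, 11H1 blue, 14B5 orange). Most clone libraries lie between -0.3 and -1, CKAP2L lies above 0, RABL2A is split by clone, and DBI, TMEM37, BIN1 and LIMS2 lie lowest.

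Members did not all fall by one amount. The KO versus WT log2FC was at or below -1 in 7 members (LIMS2, TMEM37, DBI, BIN1, IL1B, HS6ST1 and INSIG2), between -1 and -0.3 in 31, and above -0.3 in 3 (CKAP2L, RABL2A and ZC3H8). The 2 lowest, LIMS2 and TMEM37, were also among the most weakly expressed. Over the 41 members, log2FC and log2 mean CPM had a Pearson r of 0.48 and a Spearman rho of 0.19, which describes these genes in the same 9 libraries. The 36 members that averaged 10 CPM or more had a median log2FC of -0.58 and ranged from -1.68 to 0.14. Per kilobase of exon, WT levels ran from 0.0817 CPM for LIMS2 to 41.1 CPM for IL1B.

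The mitosis group had a median log2FC of -0.45 in KO versus WT, with 3 of 4 members lower. BUB1, the spindle checkpoint kinase (chr2:110637698-110678114, minus strand), measured 163, 162 and 189 CPM in WT, 91.5, 87.2 and 92.8 CPM in 11H1 and 118, 117 and 107 CPM in 14B5. The groups did not overlap, and 11H1 was the lower clone. Its log2FC was -0.74 ± 0.109 in KO versus WT. ANAPC1, the largest APC/C subunit (chr2:111611639-111884690, minus strand), measured 123, 121 and 140 CPM in WT, 97.9, 89.1 and 94.1 CPM in 11H1 and 95.1, 103 and 95 CPM in 14B5, with a log2FC of -0.44 ± 0.0616 in 11H1 and -0.41 ± 0.0624 in 14B5. Every clone library was below every WT library, and the clones overlapped each other. ANAPC1 has partial copies in the genome, so reads may be split between them and its values are uncertain. CLASP1, which stabilises microtubule plus ends (chr2:121337776-121649587, minus strand), measured 87.3, 85.3 and 99.3 CPM in WT, 73.6, 71.3 and 74.9 CPM in 11H1 and 58.9, 57.7 and 55.9 CPM in 14B5, with 14B5 lowest. CKAP2L, a spindle protein degraded through the APC/C (chr2:112736607-112764677, minus strand), measured 50.7, 50.8 and 59.6 CPM in WT, 60.2, 58.3 and 60.3 CPM in 11H1 and 59, 60.6 and 56.7 CPM in 14B5. Its clone libraries lay at the upper end of WT and overlapped it, with a log2FC of 0.14 ± 0.0638 in KO versus WT. CKAP2L lies between SLC20A1 and IL1B, and both of these were lower in every clone library.

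The cell surface, matrix and secreted group had the lowest median log2FC, -0.86, and its 6 tested members were all lower in KO. IL1B, the gene of interleukin-1β (chr2:112829751-112836903, minus strand), measured 128, 123 and 131 CPM in WT, 49.8, 50.9 and 52 CPM in 11H1 and 57.1, 57.5 and 55.3 CPM in 14B5. All clone libraries were well below WT, with a log2FC of -1.32 ± 0.046 in 11H1 and -1.18 ± 0.046 in 14B5. GYPC, glycophorin C, which ties the red cell membrane to its skeleton (chr2:126655933-126696670, plus strand), measured 132, 134 and 119 CPM in WT, 69.5, 74.5 and 67.7 CPM in 11H1 and 104, 107 and 111 CPM in 14B5. The 11H1 libraries were at 55.2% of WT and the 14B5 libraries at 82.7%. SLC20A1, a phosphate importer (chr2:112645857-112663827, plus strand), measured 102, 98.7 and 102 CPM in WT, 55.9, 57.8 and 57.3 CPM in 11H1 and 50.4, 45.7 and 43.3 CPM in 14B5, lower in 14B5 than in 11H1. HS6ST1, a heparan sulfate sulfotransferase and the last member along the chromosome (chr2:128236716-128318577, minus strand), measured 56.1, 60.1 and 56.2 CPM in WT, 19.7, 20.5 and 20.1 CPM in 11H1 and 30.1, 30.4 and 30.4 CPM in 14B5. Its 3 groups were separate and tight. MERTK, a receptor kinase that senses dying cells, had a log2FC of -0.75 ± 0.08 in KO versus WT. STEAP3, the endosomal reductase that frees iron for uptake (chr2:119223831-119265652, plus strand), was among the least changed: it measured 42.4, 45.6 and 43.3 CPM in WT, 34.2, 31.7 and 33.9 CPM in 11H1 and 35.3, 37.5 and 37.2 CPM in 14B5, still with no overlap between KO and WT.

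The secretory, lipid and mitochondrial group had a median log2FC of -0.82, and its 8 members were all lower in KO. DBI, the acyl-CoA binding protein (chr2:119366921-119372560, plus strand), measured 67.3, 66 and 57.2 CPM in WT, 15.8, 16.6 and 18.6 CPM in 11H1 and 22.1, 20.7 and 24.7 CPM in 14B5. This was the lowest log2FC among the members with at least 10 CPM, with a log2FC of -1.90 ± 0.0773 in 11H1 and -1.51 ± 0.0814 in 14B5. UGGT1, which checks the folding of glycoproteins (chr2:128091200-128195677, plus strand), measured 123, 126 and 135 CPM in WT, 84.1, 78.7 and 87.5 CPM in 11H1 and 79, 84.3 and 78.6 CPM in 14B5, with the clones overlapping each other. SLC35F5, a member of the nucleotide sugar transporter superfamily (chr2:113705011-113756823, minus strand), measured 40.3, 41.6 and 42.7 CPM in WT, 21.6, 21.3 and 22.6 CPM in 11H1 and 27.9, 28.6 and 26.8 CPM in 14B5. CCDC93, a subunit of the CCC complex that recycles endosomal cargo (chr2:117915478-118014133, minus strand), measured 35.6, 34 and 37.2 CPM in WT, 28.1, 27.6 and 28.8 CPM in 11H1 and 18.6, 19.9 and 19.5 CPM in 14B5, lowest in 14B5. CHCHD5, a small mitochondrial protein (chr2:112584240-112589275, plus strand), measured 16.9, 14.9 and 11.3 CPM in WT, 5.7, 6.64 and 6.51 CPM in 11H1 and 7.52, 9.22 and 10.4 CPM in 14B5, lowest in 11H1. INSIG2, which retains the sterol sensor SCAP in the endoplasmic reticulum, was at 48.2% of WT in KO, TMEM87B of the Golgi at 52.8%, and TMEM177, which helps assemble cytochrome c oxidase, at 64.6%.

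The transcription and RNA processing group had a median log2FC of -0.52, and its 9 members were all lower in KO, 8 of them with no overlap. Over all genes, 20.3% had every KO library below every WT library. The members were chosen by this contrast, so nothing is read from the group's count. DDX18, an RNA helicase of ribosome assembly (chr2:117814650-117832379, plus strand), measured 185, 174 and 189 CPM in WT, 123, 121 and 125 CPM in 11H1 and 131, 123 and 122 CPM in 14B5. The clones lay together, well under WT. TSN, translin (chr2:121737103-121767853, plus strand), measured 123, 120 and 127 CPM in WT, 74.9, 79.7 and 81.6 CPM in 11H1 and 98.9, 91.5 and 90.8 CPM in 14B5, with 11H1 lower. WDR33, which reads the polyadenylation signal (chr2:127701022-127811187, minus strand), measured 92.8, 89.4 and 95.1 CPM in WT, 65.7, 64.8 and 67.3 CPM in 11H1 and 54.1, 65.4 and 64.9 CPM in 14B5. The first 14B5 library stood below the other KO libraries. ZC3H8, a subunit of the little elongation complex (chr2:112211525-112255136, minus strand), measured 13.4, 12.9 and 14.3 CPM in WT, 12.6, 12.3 and 13.4 CPM in 11H1 and 9.28, 9.38 and 10.7 CPM in 14B5. Here 11H1 overlapped WT and 14B5 was below both. The remaining members of the group were close to one another: POLR1B, the second largest subunit of RNA polymerase I, was at 66.9% of WT, IWS1, an elongation factor, at 68.4%, NIFK, a partner of Ki-67, at 72.5%, SAP130 of the SIN3 corepressor at 78.1% and POLR2D of RNA polymerase II at 78.5%. NIFK overlaps an antisense gene, NIFK-AS1, and WDR33 overlaps SFT2D3 on the other strand; the use of strand in counting is not given in the sources used here.

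The signalling, cytoskeleton and adhesion group had a median log2FC of -0.72, and 9 of its 10 members had no overlap between KO and WT. Every KO library was below every WT library in 20.3% of all genes. This contrast chose the members, so nothing is read from that count. ACTR3, the ARP3 subunit of the ARP2/3 complex and the member with the highest CPM (chr2:113889960-113962596, plus strand), measured 355, 346 and 361 CPM in WT, 189, 196 and 204 CPM in 11H1 and 241, 235 and 226 CPM in 14B5. TTL, which restores the terminal tyrosine of tubulin (chr2:112482154-112541739, plus strand), measured 80.5, 80.2 and 83 CPM in WT, 54.3, 49 and 54.9 CPM in 11H1 and 59.1, 61.7 and 60.3 CPM in 14B5. PSD4, an exchange factor for the GTPase ARF6 (chr2:113157325-113209396, plus strand), measured 75.2, 76.7 and 77 CPM in WT, 51.3, 47.1 and 51 CPM in 11H1 and 37.6, 46.8 and 44.8 CPM in 14B5. These 3 were lower in every clone library. RALB, a Ras-like GTPase (chr2:120240064-120294713, plus strand), measured 56.9, 58.2 and 60.7 CPM in WT, 23.2, 22.7 and 24.2 CPM in 11H1 and 43.8, 43.3 and 43.1 CPM in 14B5: the 11H1 libraries were at 40.1% of WT and the 14B5 libraries at 73.2%. BIN1, which bends membranes (chr2:127048027-127107355, minus strand), measured 24, 24.8 and 22.6 CPM in WT, 9.41, 9.75 and 8.33 CPM in 11H1 and 7.5, 6.01 and 6.81 CPM in 14B5. EPB41L5, a protein 4.1 relative of cell junctions (chr2:120013005-120179119, plus strand), measured 18.2, 16.6 and 20.6 CPM in WT, 12.3, 11.4 and 12.3 CPM in 11H1 and 8.08, 9.79 and 9.03 CPM in 14B5. In both genes 14B5 was the lower clone. LIMS2, an adhesion adaptor (chr2:127638381-127681786, minus strand), had 28, 35 and 32 counts in WT, 12, 2 and 3 in 11H1 and 3, 11 and 11 in 14B5. Its log2FC of -2.25 ± 0.366 was the lowest of all members and rests on few counts. RABL2A, a small GTPase of cilia (chr2:113627229-113643396, plus strand), measured 3.6, 3.4 and 3.23 CPM in WT, 4.68, 3.93 and 4.29 CPM in 11H1 and 2.53, 2.06 and 2.96 CPM in 14B5, above WT in 11H1 and below it in 14B5. RABL2A has a near-identical copy, RABL2B, so the division of reads between them is uncertain. MAP3K2, a MAP kinase kinase kinase, was at 73.1% of WT and PTPN4, a tyrosine phosphatase, at 77%.

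The other 4 members were TMEM185B, AMMECR1L, C2orf76 and TMEM37. TMEM185B (chr2:120221278-120223408, minus strand) measured 39.6, 38.9 and 41.5 CPM in WT, 22.8, 22.9 and 22.3 CPM in 11H1 and 21.3, 21.4 and 21.4 CPM in 14B5, with very tight groups. AMMECR1L (chr2:127861630-127885922, minus strand) measured 31.8, 30.7 and 32.1 CPM in WT, 28.2, 27.6 and 27.5 CPM in 11H1 and 23.1, 22.9 and 23.8 CPM in 14B5, lowest in 14B5. C2orf76 (chr2:119302225-119366828, minus strand) measured 4.84, 4.7 and 3.86 CPM in WT, 2.64, 2.44 and 3.04 CPM in 11H1 and 3.05, 2.86 and 3.57 CPM in 14B5, and its start lies next to that of DBI on the opposite strand. TMEM37 (chr2:119429901-119438520, plus strand) had 35, 59 and 35 counts in WT, 13, 10 and 3 in 11H1 and 19, 9 and 15 in 14B5. C2orf76 and DBI share a start region, yet C2orf76 was at 65.7% and DBI at 31.2% of WT.

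The comparison of 11H1 with 14B5 asked whether the members stood at the same level in the 2 clones. In edgeR's quasi-likelihood test, adjusted over all 16352 genes tested, 25 of the 40 members tested (62.5%) differed, 15 lower and 10 higher in 11H1. The same threshold called 63.7% of all genes, 32.1% lower and 31.6% higher in 11H1. The members' share lies near this background and is not a result about the members. LIMS2 did not pass the filter in this comparison. The differences were small: the median absolute log2FC was 0.22 over members and 0.31 over all genes, and 6 members (15%) differed by more than 0.5, against 29.9% of all genes. A stretch chosen as lower in both clones favours genes on which the clones agree, so nothing is read from these gaps to all genes. The median signed difference was -0.03. Single members departed from that median in either direction.

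The members lower in 11H1 were led by RALB (log2FC -0.88 ± 0.0472, adjusted p = 3.48e-08, n = 3 per clone), GYPC (log2FC -0.60 ± 0.0488, adjusted p = 8.38e-07), HS6ST1 (log2FC -0.58 ± 0.0479, adjusted p = 8.68e-07), CHCHD5 (log2FC -0.53 ± 0.116, adjusted p = 0.0016) and DBI (log2FC -0.40 ± 0.0778, adjusted p = 7.17e-04), by edgeR with Benjamini-Hochberg adjustment. In each of these 5 genes the 3 libraries of 11H1 were all below the 3 of 14B5. The members higher in 11H1 were led by RABL2A (log2FC 0.79 ± 0.148, adjusted p = 6.03e-04), CCDC93 (log2FC 0.55 ± 0.0514, adjusted p = 2.53e-06), BIN1 (log2FC 0.45 ± 0.0968, adjusted p = 0.00151), EPB41L5 (log2FC 0.43 ± 0.0798, adjusted p = 5.79e-04) and ZC3H8 (log2FC 0.39 ± 0.0745, adjusted p = 6.73e-04), by the same test, again with no overlap between the clones. The 2 directions were mixed along the chromosome: RALB was lower in 11H1, and EPB41L5, which lies close to it, higher.

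The 15 members that were not past the threshold included 2 RNA polymerase and elongation genes with nearly equal levels, POLR1B (log2FC 0.01 ± 0.0577) and IWS1 (-0.01 ± 0.0552), along with ANAPC1, CKAP2L, DDX18, NIFK, UGGT1, TMEM87B, WDR33, SAP130, MAP3K2, PTPN4, TMEM185B, C2orf76 and TMEM37. Their differences were at most 0.32, and that largest one belonged to the thinly counted TMEM37, with an SE of 0.476. Missing the threshold does not show that the levels were equal. Of the 25 calls, 5 were near the threshold: STEAP3, TMEM177, IL1B, PSD4 and INSIG2 lost theirs under at least 1 other setting.

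**Figure D2:**
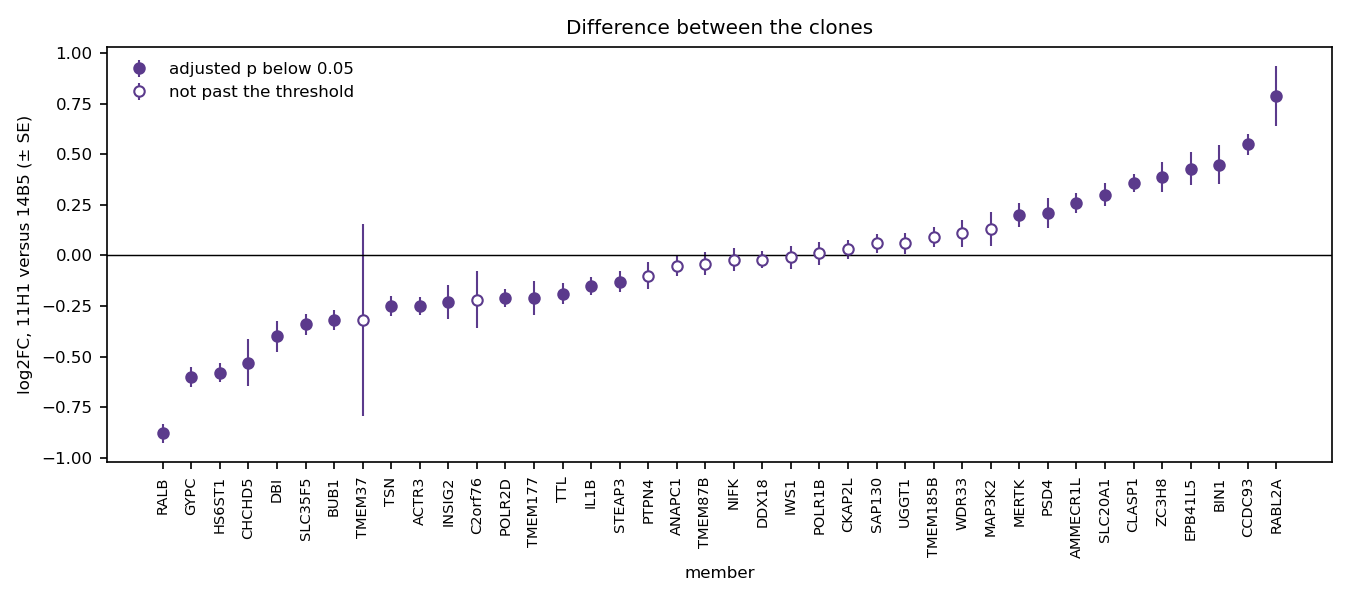
Each point is the log2FC of 11H1 over 14B5 for 1 of the 40 members tested, with its SE, ordered by size; filled points had an adjusted p below 0.05. The differences run from -0.88 for RALB to 0.79 for RABL2A, and TMEM37 has the widest error.

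The members do not make up the whole stretch. Of the protein-coding genes between 110 and 130 Mb that are not members, 15 were tested in KO versus WT, and 12 were lower, with a median log2FC of -0.72. By edgeR, 8 of them were lower and 2 higher past the threshold, where 17.7% and 14.3% of all genes were called. The position of the stretch was itself seen in this contrast. The 8 were ERCC3, a DNA repair helicase of TFIIH, TFCP2L1, MTLN, ZC3H6, SFT2D3, NT5DC4, MALL and DPP10. NT5DC4, MALL and DPP10 passed the filter on low counts through WT alone, so they could only be called lower. ERCC3 changed least, with a log2FC of -0.32 ± 0.0887 (adjusted p = 0.0215, edgeR, WT 51.7 to 54.9 CPM and KO 37.2 to 47.4 CPM). TFCP2L1 was at 11.9 to 12.6 CPM in WT, 4.78 to 5.35 CPM in 11H1 and 1.94 to 2.35 CPM in 14B5.

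DPP10 RNA was not detected in KO. It had 1329 counts over the WT libraries and 0 in all 6 KO libraries, which is at least 907-fold lower, with a floor of 3 counts over the group. MALL had 57.4 counts in WT and 0 in KO, at least 39.2-fold lower by the same floor. Intervals and floors cover counting error only. The 2 genes that rose were BCL2L11, which encodes the pro-apoptotic protein BIM, and GLI2, a Hedgehog transcription factor. BCL2L11 measured 35.4 to 38.6 CPM in WT and 44 to 53.6 CPM in KO (log2FC 0.39 ± 0.0781, adjusted p = 0.00403, edgeR), and GLI2 7.77 to 8.62 CPM in WT and 13.8 to 15.5 CPM in KO (log2FC 0.86 ± 0.0769, adjusted p = 2.64e-05, edgeR). The 5 that were not past the threshold, LIMS4, RGPD6, RGPD8, CBWD2 and FOXD4L1, belong to families with near-identical copies, and their values are uncertain.

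Lower levels also went on past both ends of the member list. Just inside the list, BUB1 had a log2FC of -0.74 and HS6ST1 one of -1.19 in KO versus WT; just outside, RGPD6 had one of -0.55 and SMPD4 one of -0.33. RGPD6, one of the genes with near-identical copies, was split between the clones, at -0.13 in 11H1 and -1.15 in 14B5, and missed the threshold with the clones pooled (adjusted p = 0.238, edgeR), while SMPD4 was at -0.25 and -0.42. From 100 to 110 Mb, 24 of 30 protein-coding genes were lower (median log2FC -0.50, 18 lower and 1 higher past the threshold), and from 130 to 140 Mb, 20 of 22 were lower (median -0.50, 16 and 0; 17.7% of all genes were called lower). The lower calls from 100 to 110 Mb include SH3RF3 and SEPT10, which passed the filter through WT alone and could only be called lower. Over the 760 genes on the rest of chromosome 2 the median was -0.00. In windows of 10 Mb, the KO versus WT medians were 0.10 from 90 to 100 Mb, -0.50, -0.72, -0.54 and -0.50 in the next 4 windows, -0.38 from 140 to 150 Mb and 0.02 from 150 to 160 Mb.

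Read gene by gene, with the edges chosen after the values were seen, the lower run began near INPP4A (chr2:98444854-98594390, log2FC -0.52), with TMEM131 before it at 0.29 (chr2:97756333-97995891). Its other edge was set at ZEB2 (chr2:144364364-144524583, log2FC -0.38), although lower levels did not stop there. ACVR2A, next on that side, was at -1.29, and ORC4 after it at -0.03. Within those edges and outside 110 to 130 Mb, 39 of 45 genes from 98 to 110 Mb and 24 of 26 from 130 to 145 Mb were lower, with medians of -0.55 and -0.54. Outside 98 to 145 Mb the median over 741 genes was 0.01, and in 20% of them every KO library was below every WT library. The files hold no measurement of DNA, and whether the number of copies of this region differed between WT and the clones was not tested.

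**Figure D3:**
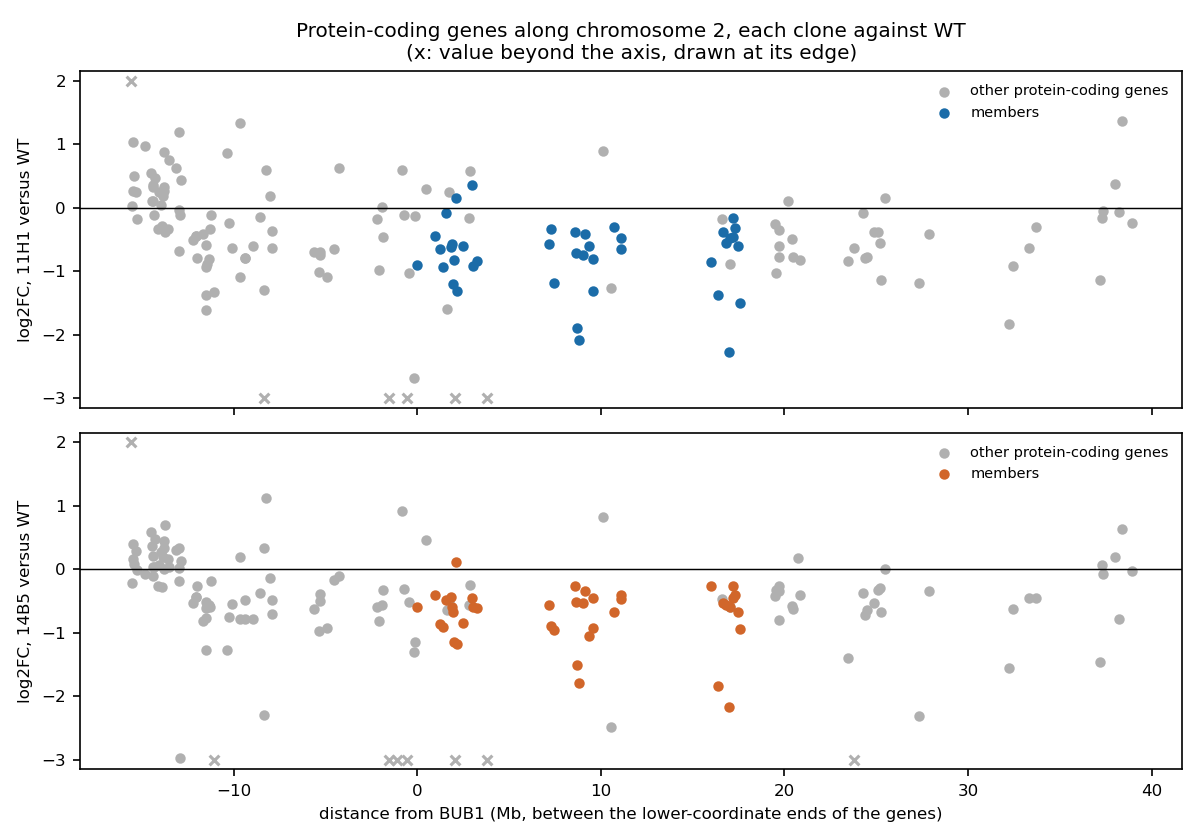
Each point is a tested protein-coding gene, placed by its distance from BUB1 along chromosome 2 in Mb, with its log2FC against WT in 11H1 (upper) and 14B5 (lower); members are coloured, other genes gray, and crosses mark values past the axis. In both clones the points sit mostly below 0 from -12.2 Mb (INPP4A) to 33.7 Mb (ZEB2). Genes above 0 in both include TBC1D8 at -9.6 Mb, IL18RAP at -8.2 Mb, BCL2L11 at 0.48 Mb and GLI2 at 10.1 Mb.

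Genes related to the members by family or by role but outside the list were compared next; the pairs were drawn up with earlier results of these data known. One of these genes, LIMS1, lies on chromosome 2 itself, at 108534355, in the lower run. Of 24 such genes 19 were tested in KO versus WT, 6 lower and 4 higher past the threshold (17.7% and 14.3% over all genes), with a median log2FC of 0.02. Of the 6, HS6ST2 passed the filter on low counts through WT alone and could only be called lower. The members paired with the 19 tested genes had a median of -0.74, and the member had the lower log2FC in 16 of 19. Members belong to a stretch chosen as lower in this same contrast, and the related genes were not chosen so. Nothing is therefore read from that difference. The 4 that rose were BUB1B, which encodes the checkpoint protein BubR1 (log2FC 0.25, adjusted p = 0.00753), TMEM87A (0.25, adjusted p = 0.00647), CKAP2 (0.40, adjusted p = 0.00119) and UGGT2 (0.51, adjusted p = 0.00461), all by edgeR. BUB1B measured 130 to 142 CPM in WT and 154 to 169 CPM in KO, and BUB1 went the other way. RALA, CLASP2, BIN2, SLC20A2, TMEM185A and TSNAX had log2FC between -0.09 and 0.17 and were not past the threshold.

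In other pairs both genes were lower. INSIG1 was lower with INSIG2 (log2FC -0.93, adjusted p = 0.0109), and AXL, a receptor kinase of the same family as MERTK, was lower (-0.83, adjusted p = 1.28e-04), by edgeR. LIMS1, AMMECR1 and PSD3 had log2FC of -0.89, -0.58 and -0.31, and the call in PSD3 did not hold under every other setting. HS6ST2 averaged 3.16 CPM in WT and 0.0543 CPM in KO. The 3 pairs in which the member was not the lower one were those of MERTK, AMMECR1L and HS6ST1.

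**Figure D4:**
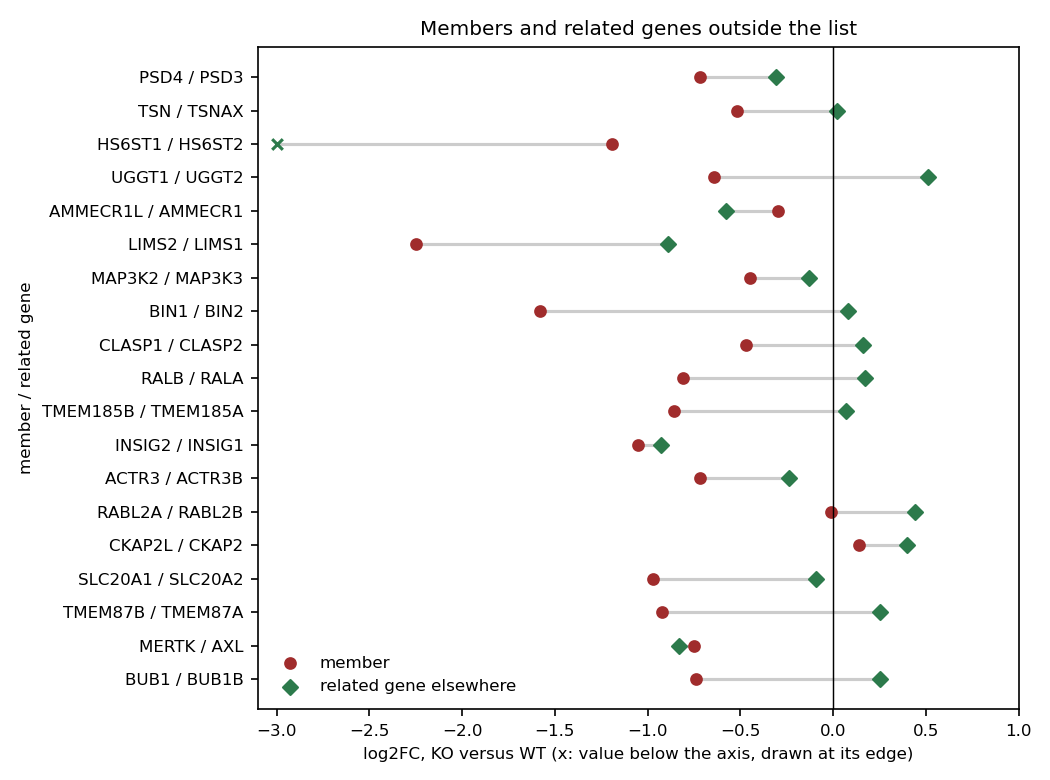
Each line joins the KO versus WT log2FC of a member (red circle) with that of its related gene (green diamond, or a cross where the value is below the axis, as for HS6ST2 at -5.62). Most members lie left of their related gene, and the MERTK, AMMECR1L and HS6ST1 pairs are reversed. The members were chosen by this contrast, so their side of the plot is not a result.

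Complex and pathway partners of the members were all encoded outside the region from 98 to 145 Mb. In 10 lists 83 partners were tested in KO versus WT, 14 higher and 7 lower past the threshold, where 14.3% and 17.7% of all genes were called, with a median log2FC of 0.10. The higher share lies near that background and is not a result about the partners, and the genes named below are given by the call each one had. Among 15 other APC/C subunits and activators, ANAPC7 (0.19, adjusted p = 0.0138) and FZR1 (0.35, adjusted p = 0.00366) rose and CDC23 fell (-0.41, adjusted p = 3.36e-04), by edgeR. Of 7 other spindle checkpoint genes, BUB1B, TTK (0.35, adjusted p = 0.00735) and KNL1 (0.57, adjusted p = 0.0126) rose and none fell, in the same test. POLR1C, POLR1E and POLR1G rose among 7 other RNA polymerase I subunits, which gave a median of 0.21. POLR1B was at -0.58, and as a member it belongs to a stretch chosen as lower in this contrast. POLR2B (0.35, adjusted p = 6.62e-04, edgeR) was the 1 of 10 other RNA polymerase II subunits past the threshold. SIN3A, ARID4A and ARID4B rose among 12 SIN3 partners of SAP130, FIP1L1 rose among 6 polyadenylation partners of WDR33, and SETD2, a histone methyltransferase, was the 1 of 4 elongation partners of IWS1 that rose. The calls of ANAPC7, KNL1, POLR1C, POLR1E, FIP1L1, ARID4B and SETD2 were lost under at least 1 other setting. FIP1L1 was past the threshold in 6 of 15 settings, POLR1C, POLR1E and SETD2 in 10, ANAPC7 and ARID4B in 11 and KNL1 in 13. Pooling the clones hid differences between them in some partners. Against WT, POLR2A had a log2FC of 0.79 in 11H1 and -0.08 in 14B5, SIN3B 0.77 and -0.15, and POLR1A 0.52 and 0.01. In others the clones were alike, as in POLR2B (0.38 and 0.31).

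The other 3 lists held the remaining lower calls. Of 4 partners of INSIG2 in sterol sensing, INSIG1, SREBF1 (-0.68, adjusted p = 0.00757) and SREBF2 (-0.21, adjusted p = 0.0167) fell and SCAP had a log2FC of -0.04, by edgeR. INSIG1 is itself a target of the SREBP factors. Of 10 partners of CCDC93, CCDC22 (-0.48, adjusted p = 0.00145) and COMMD10 (-0.54, adjusted p = 0.0158) fell, by the same test, and the calls of SREBF2 and COMMD10 were lost under at least 1 other setting. Of 8 ARP2/3 subunits beside ACTR3, ARPC2 fell (-0.26, adjusted p = 0.00635, edgeR), and the median of the list was -0.02. ACTR2, which pairs with ACTR3 in the complex, measured 726 to 823 CPM in WT, 688 to 740 CPM in 11H1 and 694 to 806 CPM in 14B5, with a log2FC of -0.05 in KO versus WT.

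**Figure D5:**
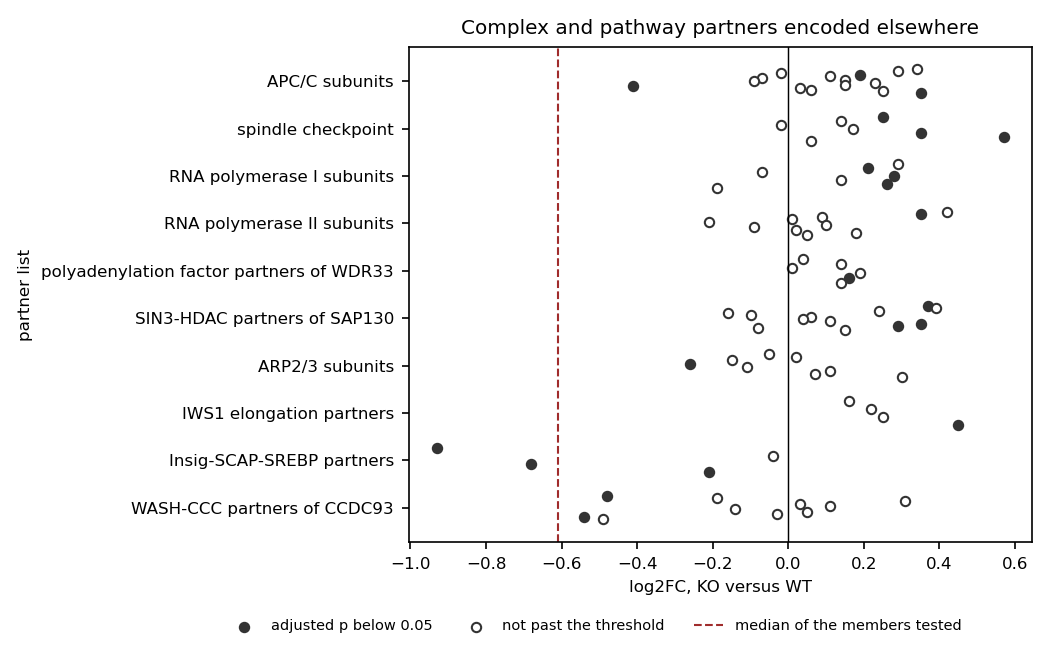
Each point is 1 partner gene encoded outside the region, placed by its KO versus WT log2FC in its list (filled, adjusted p below 0.05); the dashed line is the median of the tested members, -0.61. Only INSIG1 and SREBF1 lie to the left of that line.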

How the data were processed

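Libraries were made from total RNA of WT, 11H1 and 14B5 SET2 cells, 3 of each, and sequenced. The study's methods and the labels name different library kits, and the one in the methods is a stranded mRNA kit. Per the labels, reads were aligned with STAR 2.7.9a to GRCh38 and quantified with RSEM, and the authors deposited unnormalised expected counts per gene; the annotation release is not given in the sources used here. Between 5.73 and 6.64% of values were not whole. RSEM divides reads shared by similar genes by estimate, which affects genes with near-identical copies.

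Expected counts were rounded and tested with edgeR 4.0.16 (R 4.3.3; TMM scaling, filterByExpr, quasi-likelihood F test, Benjamini-Hochberg adjustment over all genes tested, threshold 0.05), without covariates. KO versus WT pooled both clones (17080 genes); 11H1 versus 14B5 tested 16352. Levels were computed as CPM with TMM-scaled totals. Errors beside log2FC are SE, computed as the absolute log2FC over the square root of F. The fits were tested on simulated data in which libraries varied independently. For KO versus WT the simulation held no difference between the clones, so it does not bear on calls where the clones differ. Positions came from GENCODE release 29, which placed 58587 of 60662 genes (96.6%); 92 spike-in rows were at 0. Promoters came from RefSeq. Alternatives were DESeq2 1.42.0 (Wald test, and its size factors in edgeR), no filter on low counts, a replicate block, 1 fit of 3 groups, and leaving out each library.

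The members, role groups and lists of related genes and partners were chosen with earlier results of these data known. Values in every library are given for the 3 members of each role group with the highest WT CPM, those with a KO versus WT log2FC nearest 0 or above, the 5 lowest, and the 5 with the largest difference between clones in each direction. Of non-members, at most 4 examples were named per list, with the related genes past the threshold and the tested protein-coding genes of the stretch. The study's text counts 5 KO libraries; all 6 deposited ones were used. One related gene and 1 marker are not reported here.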

Additional observations from a re-analysis of the deposited data

Results flagged for a closer look

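Among the 6 KO libraries, WDR33 stood at 54.1 CPM in the first 14B5 library, far from the other 5 by Dixon's test, which flags about 1 in 20 groups by chance. The remaining entries are the 25 members that differed between the clones in edgeR's test. Lower in 11H1, as log2FC of 11H1 over 14B5, were RALB (-0.88), GYPC (-0.60), HS6ST1 (-0.58), CHCHD5 (-0.53), DBI (-0.40), SLC35F5 (-0.34), BUB1 (-0.32), ACTR3 (-0.25), TSN (-0.25), INSIG2 (-0.23), POLR2D (-0.21), TMEM177 (-0.21), TTL (-0.19), IL1B (-0.15) and STEAP3 (-0.13). Higher in 11H1 were MERTK (0.20), PSD4 (0.21), AMMECR1L (0.26), SLC20A1 (0.30), CLASP1 (0.36), ZC3H8 (0.39), EPB41L5 (0.43), BIN1 (0.45), CCDC93 (0.55) and RABL2A (0.79). The clones also differed in the share of mitochondrially encoded counts, 7.23 to 7.39% in 11H1 and 3.3 to 3.92% in 14B5, and the part of that in these differences was not tested.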

How the results depend on the processing

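The median member log2FC in KO versus WT was -0.62 to -0.60 in all alternatives run. In 11H1 versus WT it was -0.67 to -0.58 when single libraries were left out, lowest without the second WT library. The number of genes called in KO versus WT was 5471, 10245 with the 3 groups in 1 fit, where the difference between the clones no longer counts as spread, and 3677 to 5531 without single libraries. Replicate numbers did not pair the libraries (correlations of same-numbered libraries -0.145 to 0.0581), and with the replicate block 3937 genes were called in KO versus WT and 23 members between the clones. Between the clones 22 to 23 members were called when single libraries were left out, against 25. Of 440 values of members in that comparison, 18 missed the threshold, in STEAP3, TMEM177, IL1B, PSD4 and INSIG2. Of 1476 member values against WT, 65 moved by more than the spread between replicates, and the sign of RABL2A in KO versus WT turned (-0.12 to 0.11). Among related genes and partners 42 of 1400 values, in 10 genes, lost the call and 60, in 35 genes, gained one. No scaling moved the median of all genes by more than 0.03. Depth limits FBLN7, INHBB, LIMS2 and TMEM37.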
